A study of Homo sapiens with 4 samples.

Results

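Gene expression of human proximal tubular cells (HPTCs) stimulated with IL-1β and empagliflozin (Empa) fell into 2 states that crossed the cell-line labels. Pair A, which shared 1 state, consists of replicate 1 of HK-2 together with replicate 2 of RPTEC/TERT1. Pair B, which shared the other, consists of replicate 2 of HK-2 together with replicate 1 of RPTEC/TERT1. Each pair thus held 2 of the 4 arrays. Pair A had high levels of chemokines, kidney lineage factors and sterol synthesis genes, and pair B had high levels of DNA replication and mitosis genes and of CDKN2A. The pairs were chosen by these same expression levels, so every difference between A and B is given below as a description with no test, and the labels are kept as deposited.

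In biological duplicate per cell line, all 4 cultures received the combination of IL-1β, at 10 ng/mL, with Empa, at 500 nM, for 24 h, which followed 24 h without serum and supplements. HK-2 is a human proximal tubule line immortalised with papillomavirus genes and grown in keratinocyte medium with serum, and RPTEC/TERT1 is a human proximal tubule line immortalised with telomerase and grown in a supplemented medium for which no serum is named. Each is a single established line, so neither stands for a range of donors. Control arrays and IL-1β arrays without Empa were not used here, and the values are therefore levels under the combined treatment and not responses to it.

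IL-1β binds the receptor IL1R1 and acts through IRAK kinases on NF-κB, a transcription factor family that switches on chemokines, cytokines and its own inhibitors. Cells that enter division switch on DNA replication genes through E2F factors, which RB1 restrains, and then switch on mitosis genes through promoter elements such as the CHR (cell cycle genes homology region). Proximal tubule cells reabsorb filtered solutes through brush border transporters, and factors such as PAX2, PAX8 and EMX2 govern the identity of kidney epithelium.

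A level below is the log2 of the processed signal over the 75th percentile of its array, so a level of 0 is the brightness of that percentile, and -5.37 is the floor set by detection. Across 16431 genes, those detected well above background by 2 or more arrays, Pearson's r across genes was 0.983 between the arrays of A and 0.975 between those of B, against 0.833 to 0.856 between arrays of different pairs. Genes are not independent replicates, and these correlations are given as a description. The split into A and B held 87.5% of the variance of gene-centred levels, the replicate number 9.28% and the cell-line label 3.23%. The share of spots well above background was 60.2% and 59.2% on the arrays of A and 64.9% and 63.4% on those of B, and the part of this in the differences was not tested. Replicate 1 of both lines was scanned on 1 date and replicate 2 on another, and each array had a slide of its own, so each pair holds both labels, both replicate numbers and both scan dates. Precision is limited by the number of arrays.

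The median size of the difference between A and B was 0.67 on the log2 scale, against 0.22 between the 2 arrays of A and 0.30 between those of B. The difference reached 1 in 5436 genes (33.1%) between the pairs, in 805 genes (4.90%) within A and in 1112 genes (6.77%) within B. In the plot of difference sizes, which counts genes at or below each size, the black curve accordingly lies below both coloured ones at a difference of 1.

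**Figure D1:**
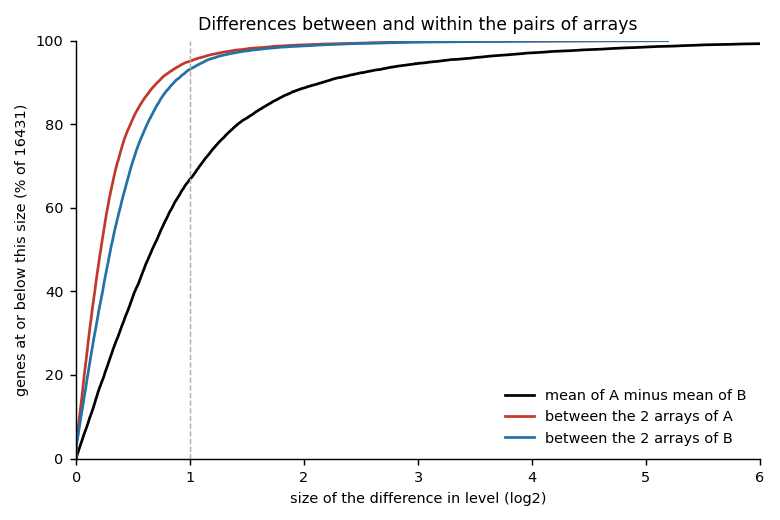
Cumulative percent of the 16431 genes (y axis) by the size of their difference in level (x axis, log2), for the mean of A minus the mean of B (black), for HK-2 replicate 1 against RPTEC/TERT1 replicate 2 (red) and for HK-2 replicate 2 against RPTEC/TERT1 replicate 1 (blue). The dashed line marks a difference of 1, which 33.1%, 4.90% and 6.77% of the genes reached, in this order.

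A gene is said to mark a pair where the lower array of that pair exceeded the higher array of the other pair by at least 1, called the gap, and both arrays of that pair were well above background. By this measure, 1916 genes (11.7%) marked A and 1812 (11.0%) marked B. With no minimum gap, 38.8% of the genes were higher on both arrays of A than on either array of B, 33.3% were higher on both arrays of B, and the pairs overlapped in 27.9%. These shares follow from the choice of the pairs, and nothing is read from them. The balance of the counts depends on the background correction. After normexp correction, another background correction run with a constant of 50 added to each signal, 1109 genes marked A and 455 marked B. Thus 70.9% of the markers lay on A against 51.4% here. The median difference over all genes, A minus B, moved from 0.10 to 0.61. Differences after normexp correction are given below as they stand, to be read against that median of 0.61. In the log2 values that the authors deposited, 67.9% of the markers lay on A.

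Of the genes that marked A, 383 were well above background on neither array of B, and of those that marked B, 548 (30.2% of them) on neither array of A. A gap of 5 or more was found for 102 genes toward A and 107 toward B. The difference between replicate 1 and replicate 2 had opposite signs in the 2 labelled lines, with a size of at least 1 in both, for 3899 genes, and the same sign for 162. Since the pairs were chosen from these levels, nothing is read from these counts. In the plot of replicate differences, the markers of A and of B lie in opposite corners, which the definition of a marker fixes.

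**Figure D2:**
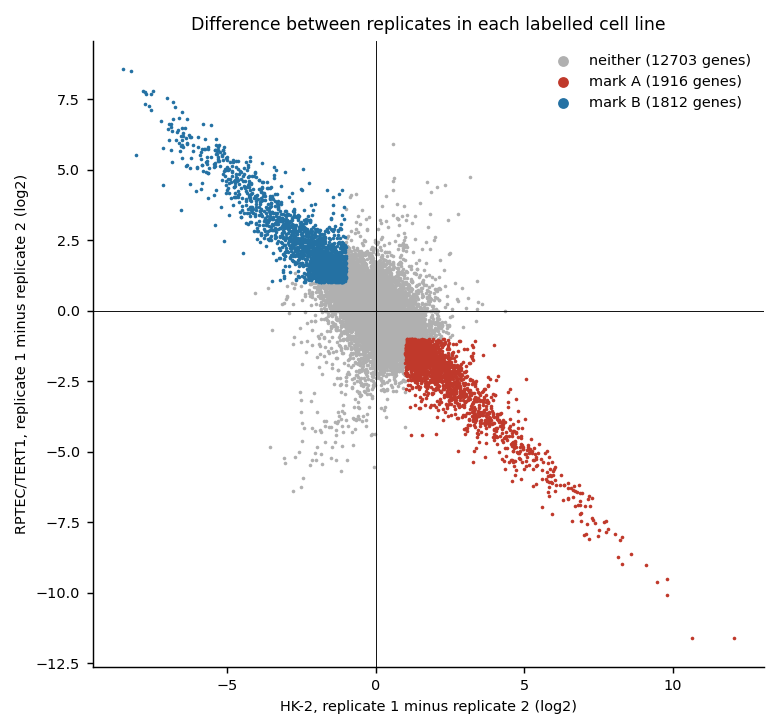
Each point is 1 of the 16431 genes, placed by the level on replicate 1 minus that on replicate 2 for the arrays labelled HK-2 (x axis, log2) and for those labelled RPTEC/TERT1 (y axis, log2). The 1916 genes that mark A (red) and the 1812 that mark B (blue) lie, by the definition of a mark, where the replicates of the labelled lines differ in opposite directions.

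The genes with the largest gaps toward A were led by secreted inflammatory proteins. CXCL6, a neutrophil-attracting chemokine read by a probe on chromosome 4 from 74703368 to 74703427 of GRCh37, stood at 6.67 on HK-2 replicate 1 and 6.23 on RPTEC/TERT1 replicate 2, and was not well above background on either array of B. CCL2, the monocyte-attracting chemokine MCP-1, stood at 7.36 and 7.32 on A, where its probe was saturated on both arrays, and at -3.29 on HK-2 replicate 2 and -4.29 on RPTEC/TERT1 replicate 1. The signal of CXCL6 was at least 3621-fold and that of CCL2 at least 2236-fold higher on A, both given as lower bounds because one side lay outside the measured range, with the same floor on every array. Both arrays of A were thus bright for chemokines that were near or below detection on B.

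TNFRSF11B, the decoy receptor osteoprotegerin, had levels of 4.41 and 4.72 on A and lay at the floor on both arrays of B (at least 978-fold). SLPI, a secreted inhibitor of neutrophil elastase, had levels of 4.43 and 4.16 on A against -5.36 and -5.37 on B, where it was not well above background. FSTL1, a secreted glycoprotein, was measured on all 4 arrays, at 6.30 and 6.39 on A and -2.79 and -2.61 on B, a 528-fold difference. Products at the cell surface and in the matrix were also among the genes with the largest gaps toward A. They included SULF2, which trims heparan sulphate, and EMILIN2, a matrix glycoprotein, with levels of 3.20 to 3.60 on A. EMILIN2 was well above background on 1 of the 2 arrays of B, and SULF2 was so on neither. CASP4, the inflammatory caspase that senses bacterial lipopolysaccharide, stood at 3.71 and 3.91 on A and -4.34 and -4.01 on B, a 253-fold difference. C2CD4A, CPVL, SCIN, the noncoding EMX2OS and PAX2 stood between 2.11 and 3.35 on A and were not well above background on B. Another probe of PAX2 was at the floor on all 4 arrays, so PAX2 rests on 1 of its 2 probes.

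Toward B, the genes with the largest gaps joined developmental and metabolic genes to those of cell division. IRX4, a homeobox factor, stood at 3.16 on HK-2 replicate 2 and 3.22 on RPTEC/TERT1 replicate 1 and was not well above background on A (at least 366-fold). EEF1A2, a translation elongation factor known from muscle and nerve, was measured on all arrays, at -3.79 and -4.22 on A and 4.43 and 4.29 on B, a 329-fold difference. PHGDH, the entry enzyme of serine synthesis, was 216-fold higher on B, with levels of -4.21 and -4.34 on A and 3.54 and 3.43 on B. For each of these 3 genes the 2 arrays of B differed by at most 0.14.

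EREG, a ligand of the EGF receptor, stood at 2.34 and 2.32 on B and at the floor on A (at least 208-fold). Cell division genes followed with DTL, which helps a ubiquitin ligase act during replication, RRM2, a subunit of ribonucleotide reductase, and TOP2A, the topoisomerase that untangles chromosomes. Their levels on B were 1.94 to 2.97, and none was well above background on A. CCND2, a G1 cyclin, stood at 1.44 and 2.01 on B and at the floor on A (at least 137-fold). DHRS3, a retinal reductase, RRAD, a small GTPase, BCHE, butyrylcholinesterase, SLN, a regulator of the sarcoplasmic calcium pump, TCEA3, an elongation factor, HENMT1, a small-RNA methyltransferase, and the pseudogene TCAM1P stood between 1.25 and 2.42 on B and were not well above background on A. In the plot of these levels, the arrays of a pair lie next to each other for every gene although they carry different line labels.

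**Figure D3:**
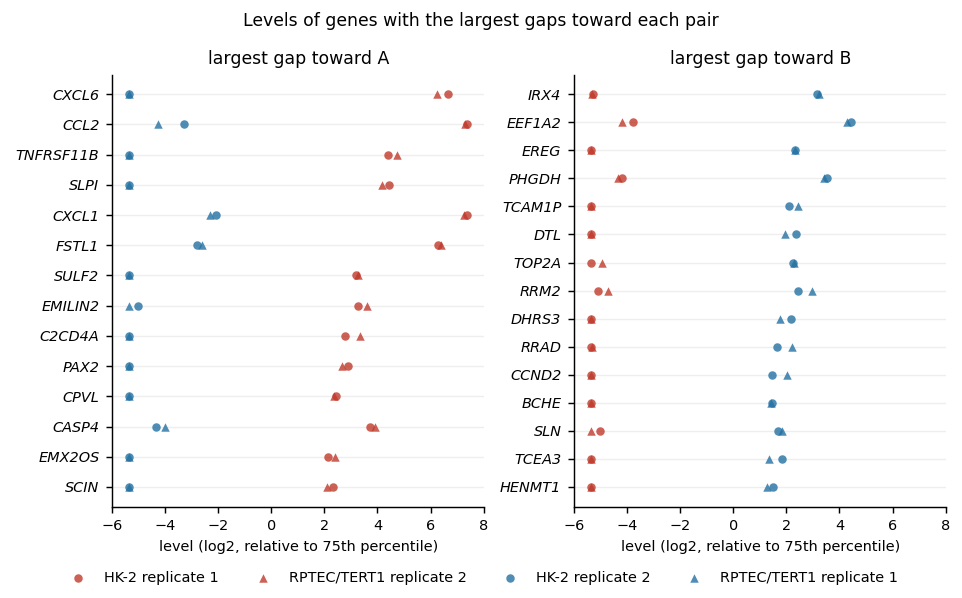
Levels (x axis, log2 relative to the 75th percentile of the array) of 14 of the 15 genes with the largest gaps toward A (left) and of the 15 toward B (right), on HK-2 (circles) and RPTEC/TERT1 (triangles) arrays, with pair A in red and pair B in blue. For CXCL6 the arrays of A stood at 6.67 and 6.23 and those of B at the floor of -5.37, and for IRX4 those of B stood at 3.16 and 3.22.

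In each gene list below, counts of markers stand against the 11.7% of all genes that marked A and the 11.0% that marked B. Genes of the cell cycle lay toward B as a body. Of the 31 measured members of a list of DNA replication genes and E2F targets, 30 marked B and 0 marked A, where 11.0% and 11.7% of all genes did, and all 31 were higher on both arrays of B than on either array of A. Their median difference, A minus B, was -4.02, against 0.10 over all genes. The median level of the list was -3.84 on HK-2 replicate 1 and -3.82 on RPTEC/TERT1 replicate 2, against 1.28 on HK-2 replicate 2 and 1.06 on RPTEC/TERT1 replicate 1. RRM2 stood at -5.11 and -4.71 on A and 2.44 and 2.97 on B (at least 196-fold). GINS2, part of the replicative helicase, stood at -5.29 and -4.58 on A and 1.67 and 1.87 on B (at least 104-fold). CDT1, which licenses origins, stood at -4.04 and -3.82 on A and 2.36 and 2.67 on B. It was measured on all 4 arrays and was 87.2-fold brighter on B, while RRM2 and GINS2 were not well above background on A.

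The mitosis and spindle genes went further in the same direction. All 34 measured members marked B, with a median difference of -5.38 and a range of -7.43 to -2.83. The median level of the list was -3.85 and -3.95 on A against 1.70 and 1.86 on B. TOP2A stood at -5.36 and -4.96 on A and 2.25 and 2.29 on B. For CENPA, the histone variant of centromeres, the levels were -5.37 and -5.35 on A and 1.47 and 1.04 on B. NUF2, part of the kinetochore, stood at -5.37 and -5.27 on A and 1.29 and 1.07 on B. None of these 3 genes was well above background on A. In bulk RNA, fewer dividing cells and less RNA of these genes per cell cannot be told apart.

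Regulators of G1 were divided. Of 21 measured, 6 marked B and 0 marked A, and 15 marked neither, with a median difference of -0.37. It was 0.051 after normexp correction, where the median of all genes was 0.61. CDKN2A, which encodes the cell cycle inhibitors p16 and p14ARF, stood at 0.29 and 0.20 on A and 4.17 and 4.04 on B, a 14.6-fold difference. CDKN3, a phosphatase of cyclin-dependent kinases, stood at -2.45 and -2.12 on A and 2.41 and 1.88 on B. Both arrays of B were thus high for 2 genes named as inhibitors of the cycle. CDKN1A, which encodes the inhibitor p21, was dim throughout, at -3.22 and -3.44 on A and -3.98 and -3.89 on B. CDKN1C, another inhibitor of the same family, was 2.30-fold higher on A, with levels of 1.36 and 1.20 against 0.25 and -0.10, a gap just under 1. TERT, the catalytic subunit of telomerase, lay near detection on every array, at -4.05 and -4.67 on A and -4.36 and -3.62 on B, and the pairs overlapped. The arrays overlapped by label as well, and whether the probe reads an introduced copy of TERT was not tested.

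The promoters of the cell cycle genes are shown because the members of these lists moved together across the arrays. Windows of RefSeq on GRCh38.p14, from 250 bases before to 50 after the start of the gene, were found for 11354 of the 16431 measured genes, using the first window listed for a gene. They were searched on both strands for the E2F words TTTCCCGC, TTTCGCGC, TTTGCCGC and TTTGGCGC and for the CHR word TTTGAA. An E2F word was in 14 of 25 windows of the replication list (56.0%) and in 3 of 28 windows of the mitosis list (10.7%), against 5.06% of all measured genes and 3.33% of all 27305 windows in the table. The CHR word was in 20 of 28 windows of the mitosis list (71.4%) and 0 of 25 of the replication list, against 9.72% of all measured genes and 15.4% of all windows. The word CCAAT, which factor NF-Y binds, was in 17 of 25 (68.0%) and 20 of 28 (71.4%) of these windows, against 36.7% of the measured genes. Of the genes that marked B and had a window, 7.89% held an E2F word and 14.4% the CHR word, and of those that marked A, 3.19% and 9.28%. The replication list was made of replication genes and E2F targets, and the CHR is known from promoters of mitosis genes. The shares of the E2F and CHR words in these lists are therefore no test. The genes that marked B include members of these lists, so the shares among them are no separate test. A match describes the letters of the window and shows no binding.

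The 250 bases before the start follow for the genes of each list with the largest gap and a match. The capitals mark the E2F word, on either strand, in the first 2 and the CHR word, on either strand, in the last 2.
GINS2, chr16:85688955-85689204, minus strand: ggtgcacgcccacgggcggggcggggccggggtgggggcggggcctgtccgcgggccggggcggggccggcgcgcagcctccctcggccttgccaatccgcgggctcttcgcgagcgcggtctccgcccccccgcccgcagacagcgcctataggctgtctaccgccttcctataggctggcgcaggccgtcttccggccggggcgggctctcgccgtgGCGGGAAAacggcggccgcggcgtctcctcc
CDT1, chr16:88803539-88803788, plus strand: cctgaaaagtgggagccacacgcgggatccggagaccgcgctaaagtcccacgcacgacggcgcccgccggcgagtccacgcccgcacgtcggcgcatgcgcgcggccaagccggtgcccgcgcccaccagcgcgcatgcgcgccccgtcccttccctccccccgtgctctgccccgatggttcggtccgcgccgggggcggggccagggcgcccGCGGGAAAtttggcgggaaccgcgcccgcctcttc
TOP2A, chr17:40417897-40418146, minus strand: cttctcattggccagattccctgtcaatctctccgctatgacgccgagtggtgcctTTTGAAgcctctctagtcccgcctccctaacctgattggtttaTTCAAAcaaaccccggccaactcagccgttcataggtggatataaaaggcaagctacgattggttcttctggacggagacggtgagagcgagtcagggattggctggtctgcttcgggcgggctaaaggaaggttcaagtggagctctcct
CENPA, chr2:26785806-26786055, plus strand: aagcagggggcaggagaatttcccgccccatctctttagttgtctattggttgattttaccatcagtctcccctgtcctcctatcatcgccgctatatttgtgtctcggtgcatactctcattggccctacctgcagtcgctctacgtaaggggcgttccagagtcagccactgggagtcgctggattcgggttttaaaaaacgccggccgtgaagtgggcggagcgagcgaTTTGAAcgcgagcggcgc

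Chemokines were the list with the highest median toward A. Of 14 measured, 12 marked A, 1 marked B and 1 marked neither, and the median difference was 3.73 against 0.10 over all genes. The median level of the list was 3.69 and 3.97 on A and -2.55 and -3.20 on B. Beside CXCL6 and CCL2, CXCL1, another neutrophil attractant, stood at 7.39 and 7.28 on A, saturated on both arrays, and at -2.08 and -2.33 on B. The 2 probes of CXCL1 disagreed on B, where one lay at the floor and the other at 1.22 and 0.71. CCL28, a mucosal chemokine, was the marker of B, with -2.57 and -3.30 on A and 0.24 and -0.33 on B. CCL20, which attracts CCR6-bearing lymphocytes, was bright on every array, at 5.51 and 5.39 on A and 5.62 and 6.08 on B. CCL20 was thus bright on both pairs, unlike the other chemokines described here.

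Cytokines were mixed, with 7 of 16 marking A and 4 marking B (11.7% and 11.0% of all genes), and a median difference of 1.29. TNF, the tumour necrosis factor, stood at 3.04 and 3.25 on A and -2.31 and -1.84 on B, a 37.3-fold difference. IL1B, which encodes the stimulus itself, stood at -1.72 and -1.78 on A and at the floor on B. CSF3, the granulocyte growth factor, stood at -1.85 and -1.28 on A and at the floor on B. IL1B and CSF3 were therefore above background on A alone. Other cytokines lay toward B. IL11, of the IL-6 family, stood at -2.47 and -2.76 on A and 0.68 and 0.44 on B. For TNFSF10, the death ligand TRAIL, the levels were -0.25 and 0.73 on A and 3.51 and 3.32 on B. IL23A, a subunit of an interleukin, stood at -0.73 and -0.81 on A and 0.76 and 1.28 on B. These 3 cytokines were measured on all 4 arrays and were high on both arrays of B. EDN1, the vasoconstrictor endothelin-1, stood at 0.77 and 1.11 on A and -5.26 and -5.30 on B, where 1 of the 2 arrays was well above background.

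The IL-1 receptor pathway had 3 of 16 members marking A and 2 marking B, near the 11.7% and 11.0% of all genes, and a median difference of 0.04. IL1R1, the signalling receptor, stood at -1.24 and -1.31 on A and -3.92 and -4.48 on B, a 7.61-fold difference. IRAK2, a kinase of the pathway, stood at 2.84 and 2.87 on A and 0.78 and 0.08 on B. TOLLIP, an adaptor, stood at 0.91 and 0.75 on A and -0.98 and -0.83 on B. The markers of B were an inhibitory relative of the kinases and the co-receptor. The former, IRAK3, stood at -3.54 and -3.90 on A and -2.01 and -1.89 on B. The latter, IL1RAP, stood at -2.83 and -2.56 on A and -1.54 and -1.10 on B. Both had the opposite sign after normexp correction, with differences of 0.30 and 0.048, under the median of 0.61 of all genes.

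Among NF-κB subunits and feedback inhibitors, 9 of 18 marked A and 0 marked B, with a median difference of 1.36. TNFAIP3, the inhibitor A20, stood at 1.81 and 1.74 on A and -1.20 and -1.95 on B, a 10.2-fold difference. NFKB1, a subunit precursor, stood at 3.34 and 3.11 on A and 1.18 and 1.30 on B. TNIP3, a partner of A20, stood at -2.74 and -2.53 on A and at the floor on B. A few members lay the other way without reaching a gap of 1. NFKBIZ, a nuclear co-regulator, stood at 2.80 and 2.39 on A and 2.89 and 3.37 on B. CYLD, a deubiquitinase, stood at -1.83 and -1.84 on A and -1.05 and -1.49 on B.

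The NF-κB motif, searched on both strands of the same windows, was in 5 of 10 windows of the chemokine list and 8 of 16 of the NF-κB list, against 12.9% of all measured genes and 10.8% of all windows. NF-κB is known to switch on chemokines and its own inhibitors, so the shares of these 2 lists are no test. The motif was in 15.3% of the genes that marked A and 13.1% of those that marked B. The AP-1 word TGANTCA was in 2 of 10 windows of the chemokine list, in 7.05% of the genes that marked A and in 3.48% of those that marked B, against 4.94% of all measured genes. The 250 bases before the start of the 2 chemokines with the largest gap and a match are shown, with the NF-κB motif in capitals.
CXCL6, chr4:73836428-73836677, plus strand: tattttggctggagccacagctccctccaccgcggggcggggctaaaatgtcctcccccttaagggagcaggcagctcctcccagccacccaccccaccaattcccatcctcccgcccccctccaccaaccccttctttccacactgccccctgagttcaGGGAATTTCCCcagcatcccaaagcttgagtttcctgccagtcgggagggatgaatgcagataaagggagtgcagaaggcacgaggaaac
CXCL1, chr4:73869143-73869392, plus strand: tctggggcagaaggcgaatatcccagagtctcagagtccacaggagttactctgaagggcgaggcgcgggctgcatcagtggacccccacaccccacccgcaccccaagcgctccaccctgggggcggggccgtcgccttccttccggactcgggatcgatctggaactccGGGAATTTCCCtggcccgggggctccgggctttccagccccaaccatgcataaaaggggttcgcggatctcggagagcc
The stretch in capitals reads the same in CXCL6 and CXCL1, and matches overlap in it because the motif was found on both strands.

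Acute phase and complement genes lay toward A, with 9 of 18 marking A, 1 marking B and a median difference of 1.12. SERPINA3, antichymotrypsin, stood at 0.43 and 0.21 on A and -4.86 and -5.07 on B, a 39.0-fold difference. CD59, which blocks the membrane attack complex, stood at 2.44 and 2.53 on A and -1.55 and -1.85 on B. CFI, the protease complement factor I, stood at -0.32 and -0.05 on A and -5.01 and -5.37 on B, where 1 of the 2 arrays was well above background. All 3 genes were bright or moderate on A and dim on B. SERPINA1, antitrypsin, was bright and similar on all arrays, between 3.12 and 3.77.

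Interferon-stimulated genes also lay toward A in part, with 11 of 29 marking A, 3 marking B and a median difference of 0.95. MX1, an antiviral GTPase, stood at 0.27 and -0.07 on A and -3.67 and -4.55 on B, an 18.5-fold difference. GBP2, a guanylate-binding protein, stood at 0.38 and 1.33 on A and -2.91 and -4.03 on B. OAS3 and USP18, which marked B, were dim. Their differences after normexp correction were 0.29 and 0.65, where the median of all genes was 0.61. Among antigen presentation genes, 7 of 16 marked A and 2 marked B, with a median difference of 0.99. B2M, the light chain of class I molecules, stood at 6.26 and 6.56 on A and 4.13 and 3.91 on B. HLA-E, a class I molecule, stood at 6.13 and 6.21 on A and 3.70 and 4.05 on B. TAP1, the peptide transporter, stood at 2.67 and 2.81 on A and 1.11 and 0.82 on B. Class I genes were thus bright on every array and brighter on A. The class II genes HLA-DMA and CD74 were the markers of B, both dim, and CD74 had a difference of 0.81 toward A after normexp correction.

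Transcription factors of the kidney lineage lay toward A. Of 14 measured, 8 marked A and 1 marked B, with a median difference of 1.66. PAX2, a factor of the developing nephron, stood at 2.90 and 2.66 on A and at the floor on B (at least 285-fold). EMX2, a homeobox factor of the urogenital system, stood at 1.99 and 2.15 on A and at the floor on B (at least 174-fold). Both factors were above background on A alone, and others of the lineage were on every array. PAX8 stood at 4.13 and 3.73 on A and 1.61 and 2.79 on B. LHX1, a factor of early nephrons, marked B, at -1.79 and -1.05 on A and 0.89 and 0.05 on B.

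HOX genes, which mark the position of origin along the body axis, had 11 of 26 marking A and 1 marking B, with a median difference of 1.36. HOXD1 stood at -0.24 and 0.16 on A and -3.78 and -4.15 on B. For HOXB6 the levels were 4.86 and 5.21 on A and 2.14 and 1.41 on B. HOXC8 stood at -1.78 and -1.51 on A and -4.78 and -4.75 on B. Members of 3 of the HOX clusters were thus higher on both arrays of A. HOXB4 was the marker of B, at -0.84 and -1.21 on A and 0.18 and 0.42 on B.

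The labelled cell type was checked against 13 proximal tubule markers. Of these, 7 were well above background on all 4 arrays, among them LRP2, GGT1, DPP4, SLC5A2, PAX8 and CDH6. CUBN, SLC22A6 and HNF4A were so on none, and SLC34A1 on 1 array of B. SLC5A2, the target of Empa, was dim on every array, at -3.84 and -3.05 on A and -3.08 and -3.57 on B. Of the longer list of proximal tubule transport and brush border genes, 26 of 40 were measured, 7 marking A and 6 marking B, with a median difference of -0.16. ANPEP, aminopeptidase N, stood at 0.49 and 0.47 on A and at the floor on B (at least 57.8-fold). CLDN2, the cation-permeable claudin of the proximal tubule, stood at 2.48 and 2.60 on A and -2.12 and -3.43 on B. SLC17A3, a urate transporter, stood at -0.80 and -0.63 on A and -4.31 on both arrays of B. Other genes of the list were high on B instead. CA12, a carbonic anhydrase, SLC16A9, a monocarboxylate transporter, and ENPEP, aminopeptidase A, were not well above background on A and stood between -2.43 and -0.65 on B. ENPEP had a difference of 0.11 after normexp correction, where the median of all genes was 0.61. Each pair thus held its own subset of these genes.

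Markers of other cell types were few. Of 8 markers of the distal nephron and collecting duct, 6 were well above background on no array. SLC12A1, the cotransporter of the thick ascending limb, stood at -0.51 and -0.10 on A and at the floor on B, on 1 of its 2 probes, and UMOD between -3.04 and -2.70 on all 4 arrays. The log2 of the summed signal of the 8 markers was -0.040 and 0.31 on A and -1.66 on both arrays of B. Of 7 fibroblast and mesangial markers, COL3A1, PDGFRA and PDGFRB were on no array, LUM stood at 0.23 and -0.30 and DCN at -0.61 and -0.87 on B without being well above background on A, and ACTA2 stood at -1.56 and -1.39 on A without being so on B. Their summed level was -1.0 and -0.90 on A and 0.98 and 0.59 on B. Of 5 endothelial markers, KDR, VWF and TEK were on no array, with summed levels of -1.26 and -1.85 on A and -1.78 and -2.18 on B. Of 6 leukocyte markers 1 was on no array, CD68 stood between -0.54 and 0.62, and CSF1R was above background on B alone, at -2.09 and -2.07, and the summed level was -0.055 and -0.23 on A and 0.61 and 1.03 on B. CSF1R had a difference of 0.050 after normexp correction, where the median of all genes was 0.61. The part of other cells in the differences between A and B was not tested.

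Epithelial junction genes lay toward A, with 13 of 26 marking A, 2 marking B and a median difference of 1.13. CDH16, kidney-specific cadherin, stood at 4.83 and 4.97 on A and -0.55 on both arrays of B, a 43.7-fold difference. CLDN3, a sealing claudin, stood at 1.75 and 1.46 on A and -3.44 and -3.56 on B. OCLN, occludin, stood at -0.24 and -0.55 on A and at the floor on B. All 3 were lower on B, where OCLN alone of them was at the floor. CDH6, a cadherin of the early nephron and the proximal tubule, marked B, at -3.26 and -3.49 on A and 0.27 and 0.86 on B, on 1 of its 2 probes. ESRP2, an epithelial splicing factor, was the other marker of B, at -0.67 and -0.73 on A and 0.63 and 0.78 on B. Keratins had 3 of 9 marking A and 0 marking B, and the simple epithelial keratins KRT7 and KRT19 were far above the 75th percentile on every array. KRT7 stood at 5.52 and 5.44 on A and 3.48 and 4.14 on B. KRT19 stood at 5.88 and 6.11 on A and 4.33 and 4.53 on B.

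Mesenchymal genes were split, with 4 of 21 marking A and 5 marking B (11.7% and 11.0% of all genes). Their median difference was 0.36, which turned to -0.42 with outlier spots kept. SPARC, INHBA and FN1, which encode a matrix protein, the activin A subunit and fibronectin, were not well above background on A and stood between -1.46 and 0.11 on B. TPM2, a tropomyosin, stood at 1.19 and 0.78 on A and -4.85 and -4.76 on B. S100A4, a calcium-binding protein, stood at -1.57 and -1.13 on A and -4.54 and -4.53 on B. Genes taken as mesenchymal were thus found on both sides. Collagens and laminins had 10 of 24 marking A and 5 marking B, with a median difference of 0.99. COL4A4, of the basement membrane, stood at 1.51 and 1.44 on A and -4.48 and -4.19 on B, a 56.2-fold difference. LAMB3, a laminin chain, stood at 5.45 and 5.66 on A and 2.90 and 2.78 on B. The collagen VI chains lay toward B. COL6A1 stood at 0.10 and 0.07 on A and 1.92 and 1.91 on B. Its partner COL6A2 was at the floor on A and at -1.20 and -0.84 on B. COL16A1 also marked B, but its 2 probes disagreed and the brighter one gave 0.21 toward A.

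Among matrix proteases and inhibitors, 3 of 16 marked A and 5 marked B (11.7% and 11.0% of all genes), with a median difference of 0.21. The plasminogen activators lay on opposite sides. PLAU, urokinase, stood at 5.00 and 4.66 on A, with a saturated probe on both arrays, and at 1.58 on both arrays of B. PLAT, tissue plasminogen activator, stood at -1.04 and -0.68 on A and 2.98 and 3.39 on B. Of the tubular injury and adhesion genes, 5 of 12 marked A and 2 marked B. PROM1, or CD133, stood at 1.34 and 1.04 on A and at the floor on B (at least 94.4-fold). ANXA1, which dampens inflammation, stood at 5.38 and 5.32 on A and 0.75 and 0.36 on B. CD44, the hyaluronan receptor, stood at 6.78 and 6.91 on A and 4.96 and 4.99 on B. Injury markers did not all lie on the same side. HAVCR1, the injury marker KIM-1, lay toward B, at -4.05 and -3.61 on A and -1.66 and -0.73 on B. VCAM1, an adhesion molecule, was the other marker of B, at the floor on A and at -1.89 and -2.51 on B. Its difference was 0.10 after normexp correction, where the median of all genes was 0.61.

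Growth factors and their receptors divided by family member, with 10 of 28 marking A, 7 marking B and a median difference of 0.38. BMP4, a bone morphogenetic protein, stood at 1.27 and 1.23 on A. ERBB4, a receptor of the EGF receptor family, stood at -0.50 and -0.39 on A, on 1 of its 2 probes. IGFBP5, an IGF-binding protein, stood at -2.08 and -2.13 on A. None of these 3 genes was well above background on B, where ligands of the EGF receptor were high. Beside EREG, AREG stood at 2.42 and 2.01 on B and -1.27 and -1.02 on A. VEGFC, a lymphatic growth factor, stood at -0.07 and -0.08 on B and at the floor on A.

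Of the metabolic lists, cholesterol and fatty acid synthesis lay toward A, with 13 of 26 marking A, 0 marking B and a median difference of 1.40. FADS2, a fatty acid desaturase, stood at 4.13 and 4.51 on A and -1.19 and -0.78 on B, a 39.5-fold difference. LSS, lanosterol synthase, stood at 1.96 and 1.97 on A and -1.65 and -1.19 on B. INSIG1, which retains the sterol sensor, stood at 4.91 and 5.58 on A and 2.52 and 2.12 on B. Its relative INSIG2 was nearly level, between -0.38 and 0.07. Fatty acid oxidation genes and PPARA targets had 5 of 17 marking A and 1 marking B, with a median difference of 0.77. PPARGC1A, a co-activator of mitochondrial genes, stood at -0.74 and -1.24 on A and -3.62 and -3.51 on B. PLIN2, which coats lipid droplets, marked B, at the floor on A and -1.88 on both arrays of B.

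Respiratory chain subunits had a median difference of 0.66, with 1 of 23 marking A and 0 marking B, and 18 higher on both arrays of A than on either of B, where 38.8% of all genes were. Glycolysis and hypoxia targets had a median difference of 0.16, with 0 of 22 marking A and 4 marking B (11.7% and 11.0% of all genes). PDK1, which holds pyruvate from the mitochondria, stood at -0.02 and 0.18 on A and 1.72 and 1.81 on B. HK2, here the gene of a hexokinase and not the cell line, stood at 0.25 and 0.07 on A and 1.40 and 2.01 on B. SLC2A3, a glucose transporter, also marked B at dim levels, with 1.05 toward A after normexp correction. Of NRF2 targets, 5 of 22 marked A and 1 marked B. AKR1C3, an aldo-keto reductase, stood at 5.06 and 5.36 on A and -1.94 and -2.60 on B, a 179-fold difference. AKR1C1, a close relative, stood at 1.79 and 2.74 on A and at the floor on B (at least 199-fold). NQO1, a quinone reductase, stood at -0.90 and -0.79 on A and -2.49 and -2.38 on B. The AKR1C genes are near-identical copies whose probes may share transcripts, and 1 probe of AKR1C1 stood between -5.37 and -4.76 on every array. SLC7A11, the cystine importer, lay toward B, at -0.04 and -0.19 on A and 1.46 and 1.18 on B.

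Metallothioneins, which bind zinc and copper, had 1 of 10 marking A, near the 11.7% of all genes, and 0 marking B. The marker was MT1F, at 4.91 and 4.86 on A and 2.82 and 2.71 on B. Cytosolic ribosomal proteins had 0 of 24 marking either pair and a median difference of 0.41, which turned to -0.12 after quantile normalization and to -0.10 after normexp correction. The plot of gene lists places the 2 cell cycle lists apart from the others, whose members spread over both sides of the median of all genes to different degrees.

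**Figure D4:**
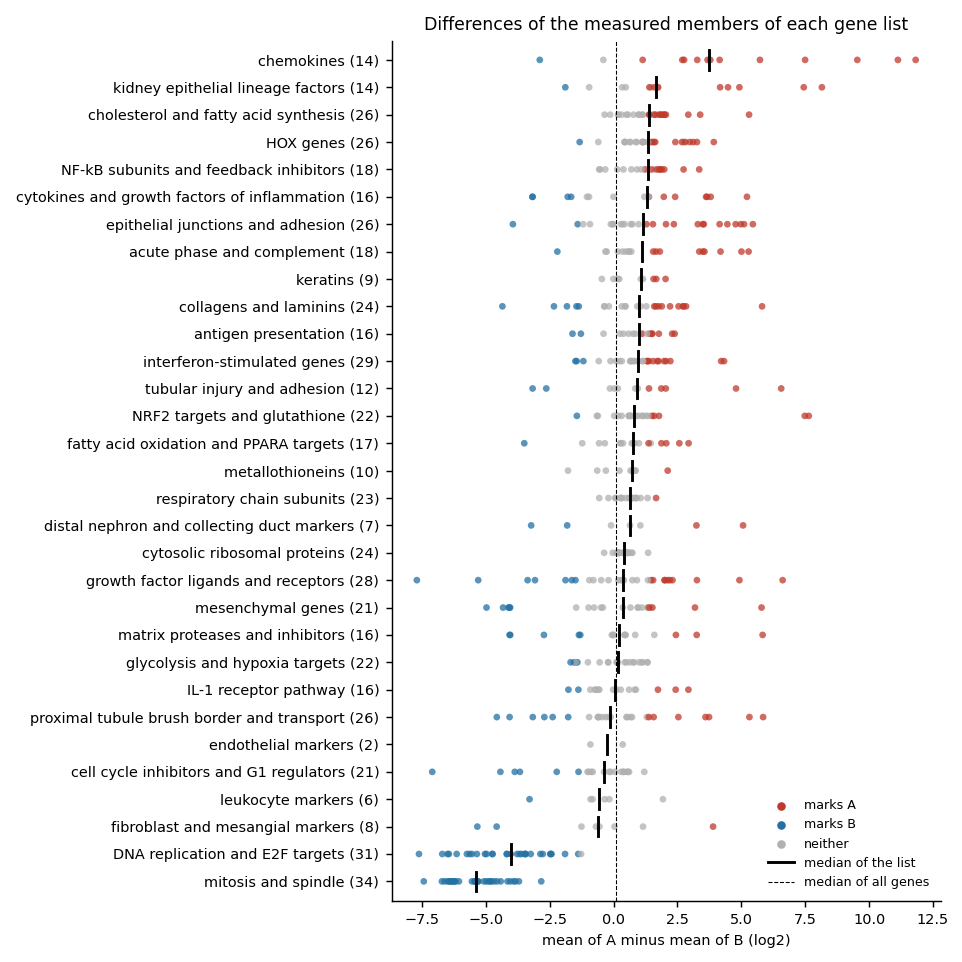
Each point is a measured member of a gene list (y axis, number measured in parentheses) at its mean on A minus its mean on B (x axis, log2), red where it marks A, blue where it marks B and grey otherwise. Black bars are the medians of the lists, from 3.73 for chemokines to -5.38 for mitosis and spindle, and the dashed line is the median of all genes, 0.10.

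By chromosome, the median difference ran from -0.25 on chromosome 20, where 31 genes marked A and 71 marked B of 447, to 0.51 on chromosome 11, where 181 marked A and 57 marked B of 920. Over all genes, 11.7% marked A and 11.0% marked B, against 6.94% and 15.9% on chromosome 20 and 19.7% and 6.20% on chromosome 11. Chromosome 13 had the next highest median, 0.40. Of 156 windows of 20 Mb with at least 20 genes, the highest median was 0.88, on chromosome 9 from 60000001 to 80000000 of GRCh37, where 21 of 63 genes marked A and 2 marked B. The lowest was -0.50, on chromosome 4 from 160000001 to 180000000, where 1 of 38 genes marked A and 9 marked B. These windows were picked as the extremes of the 156, so nothing is read from their counts. Within the pairs, the median difference of the genes of a chromosome stayed between -0.021 and 0.12. The values are of expression, and no measure of DNA was made.

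**Figure D5:**
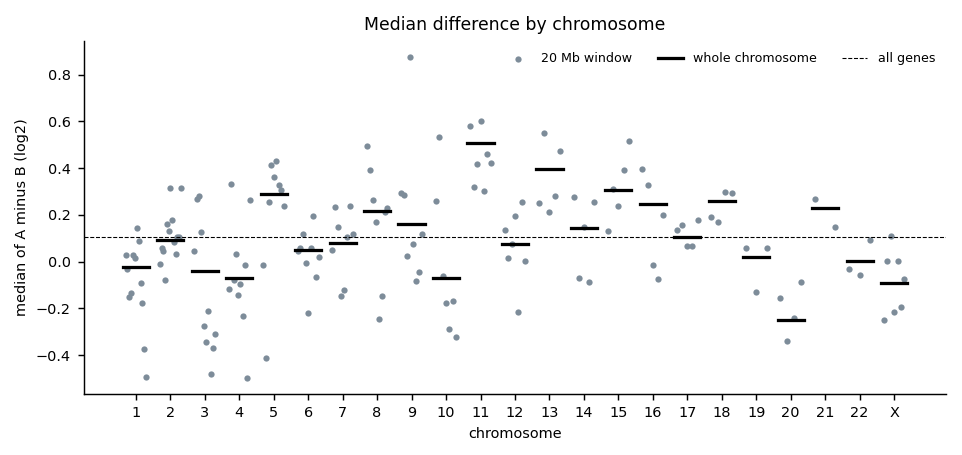
Median of A minus B (y axis, log2) over the genes of each chromosome (x axis, black bars) and of each 20 Mb window, in order along the chromosome (grey points). Chromosome 11 lies at 0.51 and chromosome 20 at -0.25 around the median of all genes of 0.10 (dashed), and the window at 0.88 is on chromosome 9.

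The cell-line label and the replicate number, which both cross the pairs, were tested. The spread that they were tested against is not independent of the rule that formed the pairs. With limma and Benjamini-Hochberg adjustment over 16431 genes, 0 genes (0%) differed between the arrays labelled HK-2 and RPTEC/TERT1 at an adjusted p under 0.05, and 23 had an unadjusted p under 0.05. Between replicate 1 and replicate 2 the count was 0 (0%), with 195 unadjusted. Both comparisons hold for the labels as deposited, and whether arrays were exchanged was not tested. Both set an array of A and an array of B in each group, so the spread within a group was that between the pairs. That spread is large by the choice of the pairs, so the counts of 0 cannot show that the lines or the replicates are alike. With the pair as a block, 0 genes (0%) differed between the labels, with 183 unadjusted, and 82 (0.499%) differed between the replicate numbers, 76 of them higher on replicate 2 and 6 on replicate 1. Since the pairs were chosen from these values, the spread left within them is small by that choice, and nothing is read from the 82 genes.

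Genes that varied within both pairs mostly followed the replicate number. Among the 16431 genes, a difference of at least 1 was found in 4.90% within A and in 6.77% within B. Of the genes with such a difference in both pairs, 240 were higher on replicate 2 in both and 73 on replicate 1. A further 13 were higher on HK-2 and 17 on RPTEC/TERT1. The replicate number goes with the scan date, and these cannot be told apart. DUOXA1, a maturation factor of dual oxidase, stood at 1.01 on RPTEC/TERT1 replicate 2 and -1.21 on HK-2 replicate 2, against -4.00 on HK-2 replicate 1 and -5.37 on RPTEC/TERT1 replicate 1. NCF1, a subunit of the phagocyte oxidase, stood at -0.55 and -1.48 on the same arrays of replicate 2 and at -5.04 and -5.37 on those of replicate 1, a difference, replicate 1 minus replicate 2, of -4.19 (standard error 0.21, adjusted p = 0.019 from limma with the pair as a block, adjusted p = 1 without it). AVP, the gene of vasopressin, stood at -0.15 and -1.48 on replicate 2 and at -4.57 and -5.37 on replicate 1 (standard error 0.20, adjusted p = 0.019 from limma with the block, adjusted p = 1 without it). The standard errors and adjusted p-values with the block rest on the spread within the pairs. That spread is small by the choice of the pairs, and nothing is read from these values. Within B, DYTN stood at 5.68 on RPTEC/TERT1 replicate 1 and 0.58 on HK-2 replicate 2, and IL2RG, the common chain of interleukin receptors, at 2.36 and -2.66. Other probes of DUOXA1, NCF1 and IL2RG were at the floor on all 4 arrays, so the values of these genes rest on only part of their probes. The smallest unadjusted p between the labels, 0.0044, belonged to the antisense transcript FMR1-AS1 (adjusted p = 1 from limma), which stood at -2.27 and -2.92 on the arrays labelled RPTEC/TERT1 and at -5.12 and -5.37 on those labelled HK-2. It was well above background on 1 array of each pair.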

How the data were processed

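The authors deposited, per the file headers, spot intensities from Agilent Feature Extraction 9.5.3.1 in 1 channel, background-subtracted and not scaled between arrays. They also deposited a table of log2 values, for which no processing was found in the sources. From the processed signal, outlier and control spots were dropped, and signals, each scaled to the 75th percentile of the array, were floored at 0.0242 of it. Spots were averaged to probes, and probes well above background on at least 1 array to genes. The lists, the named genes (the 15 largest gaps per pair, up to 3 members per list and direction, fixed genes, and the largest within-pair differences) and the members were chosen with earlier results of these data known. Chromosome Y and XIST-region genes (96 names) were left out, and some other genes are not reported here. The label and the replicate number were compared with limma 3.58.1 (lmFit, eBayes, R 4.3.3, Benjamini-Hochberg at 0.05), a step tested on simulated data. The alternatives were another background correction, the deposited log2 values, other scaling, filters and probe rules, blocks, and leaving out each array. Genes are named as on the array design. Probe positions are those of the files (GRCh37), and promoter windows are those of RefSeq. The methods describe biological duplicates, and p-values measure the spread between these arrays.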

Additional observations from a re-analysis of the deposited data

Results flagged for a closer look

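For 5 gene lists the median level differed between replicate 1 and replicate 2 by at least 2 on the log2 scale, in opposite directions on the arrays of the 2 labelled lines, which is why they are listed here. Replicate 1 minus replicate 2 was 4.07 in HK-2 and -4.60 in RPTEC/TERT1 for the kidney lineage factors, -5.12 and 4.89 for the DNA replication genes and E2F targets, -5.54 and 5.80 for the mitosis and spindle genes, 6.24 and -7.17 for the chemokines, and 2.23 and -3.01 for the acute phase and complement genes. Each value sets 1 array against 1 array. The difference between the lines was not tested, because the pairs were chosen on these levels.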

How the results depend on the processing

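The count of genes marking A, 1916, and of genes marking B, 1812, became 1109 and 455 after normexp correction, 1145 and 541 in the deposited log2 values, 6278 and 5463 with a gap of 0, and 717 and 742 with a gap of 2, and requiring detection on all arrays gave 1158 for B. The last count came from the detection filter alone, since all 1158 genes were among the 1812, and the gap counts follow from the threshold. The cause of the changes after normexp correction and in the deposited values was not tested. Leaving out 1 array gave 1919 to 2727 genes for A and 1597 to 2181 for B. The labels gave 0 genes with limma under every alternative and 0 to 0 with 1 array left out. With the replicate number as a block the count was 0, with 5 genes unadjusted, and since same-numbered arrays lie in different pairs the numbers do not pair the samples. The replicate comparison gave 0 under every alternative, arrays left out included (0 to 0), other than the array pair as a block, which gave 82.

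Over the 208 named genes, 2266 alternatives were run. Sign changes were counted only for the 136 genes that marked a pair, and 15 were found. After normexp correction these were ENPEP (0.11), HSD11B2 (0.88), CSF1R (0.050), IRAK3 (0.30), IL1RAP (0.048), OAS3 (0.29), USP18 (0.65), CD74 (0.81), VCAM1 (0.10) and SLC2A3 (1.05), and in the deposited log2 values HSD11B2 (0.46), USP18 (0.22), CD74 (0.35) and SLC2A3 (0.59). These genes are dim, and the median of all genes moved to 0.61 and 0.47 under the same alternatives. COL16A1 changed to 0.21 with the brightest probe. Among list medians, the endothelial markers became 1.07 (normexp), 0.64 (deposited) and 0.36 (detected on all arrays), the leukocyte markers 0.84 (normexp) and 0.45 (deposited), the G1 regulators 0.051 (normexp), the ribosomal proteins -0.10 (normexp) and -0.12 (quantile), the mesenchymal genes -0.42 (outlier spots kept), and the distal markers -0.27 (without RPTEC/TERT1 replicate 2, in a range up to 1.01 with 1 array left out). The remaining list medians kept their sign or lay within the spread between the arrays of a pair. Sizes were less stable than signs. Among named-gene and list differences, 185 moved by at least that spread after normexp correction, and 40 stayed within it. In the deposited values 182 moved and 51 stayed. Of the 136 named genes that marked a pair, 44 did not meet the rule for a mark under some alternative. Signal over background limits the genes at the floor.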
